A study of Mus musculus with 16 samples.

Results

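The interval between 24 h and 12 h after E1A induction was examined in mouse embryonic stem cells, as the set of array probes whose level differed between 24 h and 12 h and as a split of that set by a control harvested at 48 h. Members were the probes called by limma in 24 h minus 12 h, at a Benjamini-Hochberg adjusted p under 0.05 over all probes tested. They numbered 625 of the 13974 probes tested, or 4.47%, out of 25697 probes in the table. Their levels were compared on 4 of the 16 arrays (2 at 24 h and 2 at 12 h), with the spread of each probe taken from all 16. The study followed total RNA on single-colour Illumina bead arrays at 0, 3, 6, 9, 12, 24 and 48 h of E1A induction, with 2 arrays per time. A further pair of arrays, labelled 48hc and described as a cherry control, was also harvested at 48 h. The labels list E1A induction as the treatment of all 8 groups, 48hc included, and a mixed C57BL/6, C3H and CD1 background. They do not say how E1A was induced, whether the 48hc cells carried E1A, whether 0 h was their starting point, or whether the replicates are separate cultures. P-values thus reflect how far these particular arrays spread, which may be technical only.

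E1A, an early protein of adenovirus, acts by binding proteins of the retinoblastoma family and the acetyltransferases p300 and CBP, and is known to lead to accumulation of p53, the transcription factor that induces cell cycle inhibitors and apoptosis genes. Cells short of amino acids or with unfolded protein in the endoplasmic reticulum (ER) respond by translating Atf4, a transcription factor whose targets include Ddit3, Trib3, Chac1 and Asns. In embryonic stem cells, Pou5f1, Sox2 and Nanog hold the pluripotent state, while FGF signalling through the ERK kinases, read out by genes such as Egr1, Spry4 and Etv4, prepares cells to leave it.

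Median raw intensity lay between 122 and 136 per array, between 12124 and 12639 probes were detected, and arrays of 1 group correlated at r = 0.995 to 0.997. The embryonic stem cell markers Pou5f1, Sox2, Nanog, Zfp42 and Esrrb, 7 probes in all, were present on every array, as the label requires. Their summed normalized intensity, on a linear scale, was 14773 to 15079 at 24 h and 15834 to 16092 at 12 h. It was 14812 to 14947 at 48 h, against 23049 to 23806 in 48hc and 22819 to 24278 at 0 h. Of 8 probes for feeder fibroblast markers, the sum was 2778 to 2888 at 24 h, against 2825 to 2884 at 12 h, so that these overlapped. It was 3932 to 4183 at 48 h and 1274 to 1314 in 48hc, and smooth muscle actin (Acta2) carried most of it. The gap was not of Acta2 alone: in 48 h minus 48hc, 6 of the 8 probes were called higher and 0 lower, where 8.85% of all tested probes were higher. Their median log2 difference was 1.00, against 0.01 over all tested probes. Whether other cells contributed to the split by 48hc was not tested. In RNA from whole cultures, fewer cells of a type and less RNA per cell cannot be told apart.

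After 24 h, 354 probes were higher than at 12 h (2.53% of those tested) and 271 were lower (1.94%), which together stand for 530 of the 9614 genes tested, 302 higher and 228 lower, with 46 called probes bearing no gene name. No gene had called probes in both directions. The median log2 difference was 0.53 for higher and -0.51 for lower probes, and 5 higher and 7 lower probes passed a log2 difference of 1 in size. The highest was 1.20, for the synaptic vesicle protein Svop, and the lowest was -1.54, for the immediate early transcription factor Egr1. Of the higher probes 27 passed the detection threshold at 24 h on both arrays but on no 12 h array, and 15 of the lower ones did the opposite. In all 625 both arrays of one time lay above both of the other, which also held for 6723 (48.1%) of all tested probes. The preceding comparison, 12 h minus 9 h, gave 0 calls in limma (0%), with 558 probes higher and 591 lower at an unadjusted p under 0.05. The number of calls depended on the arrays compared and, through the spread, on the others. It was 526 without either 48 h array and 680 without 48hc replicate 1. It was 236 and 283 with 24 h replicate 1 or 2 left out, and 338 and 291 with 12 h replicate 1 or 2 left out.

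No control was harvested at 12 h or 24 h, so what the control did within this interval is not known. To see whether the direction also set 48 h apart from the control, each called probe was looked up in 48 h minus 48hc. That comparison shares no array with 24 h minus 12 h, and beyond the control below refers to it alone. The comparisons do share each probe's spread, taken from all arrays, so a probe of low spread is called more easily in both. How much of any excess over the share of all tested probes came from this shared spread was not tested. Of the 354 higher probes, 95 (26.8%) were also higher at 48 h than in 48hc and 41 (11.6%) were lower, where 8.85% of all tested probes were called higher and 9.05% lower in that comparison. Of the 271 lower probes, 89 (32.8%) were also lower and 21 (7.75%) were higher. The same direction was thus called for 184 of the 625 (29.4%) and the opposite one for 62 (9.92%). Without single arrays the opposite count was 26 (24 h replicate 1), 28 (24 h replicate 2), 33 (12 h replicate 1), 38 (12 h replicate 2), 33 (48 h replicate 1) and 26 (48 h replicate 2). The same-direction count was 84, 99 and 92 without 24 h replicate 1, 24 h replicate 2 and 12 h replicate 2.

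The same lookup was made in the control itself, in 48hc minus 0 h, which called many more of all tested probes. That comparison too shares no array with 24 h minus 12 h, but it shares each probe's spread. Of the higher probes 275 (77.7%) were higher in 48hc than at 0 h and 12 were lower, where 25.7% of all tested probes were called higher. Of the lower probes 198 (73.1%) were lower in 48hc than at 0 h and 21 were higher, where 27.2% of all were called lower. The median log2 difference between 48hc and 0 h was 0.85 over the higher probes and -0.76 over the lower ones, against -0.03 over all tested probes, while that between 48 h and 48hc was 0.08 and -0.13, against 0.01 over all. The same direction in 48hc was called for 473 of 625 (75.7%). It was called for 186 of 236, 232 of 283, 263 of 338 and 226 of 291 probes without 24 h replicate 1, 24 h replicate 2, 12 h replicate 1 and 12 h replicate 2.

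**Figure D1:**
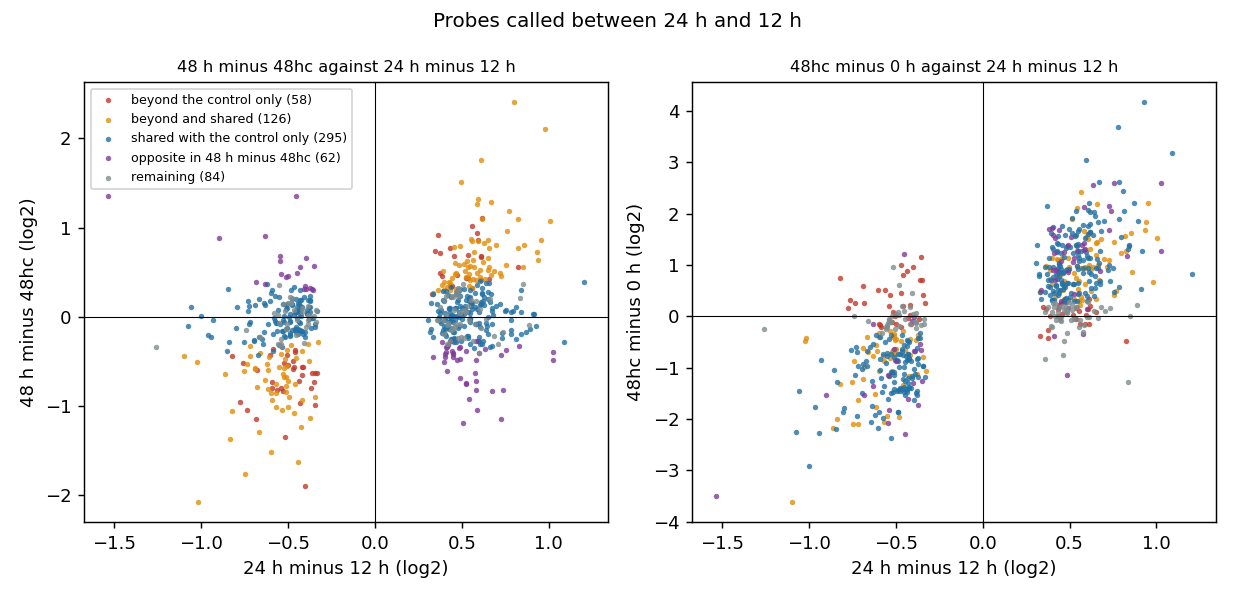
Each point is 1 of the 625 called probes, with its 24 h minus 12 h log2 difference on the x axis and its 48 h minus 48hc (left) or 48hc minus 0 h (right) log2 difference on the y axis, coloured by class with the number of probes in brackets. On the left the points lie on both sides of 0 for either direction, and on the right most lie in the quadrants of equal sign (473 of 625 are called so).

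**Figure D2:**
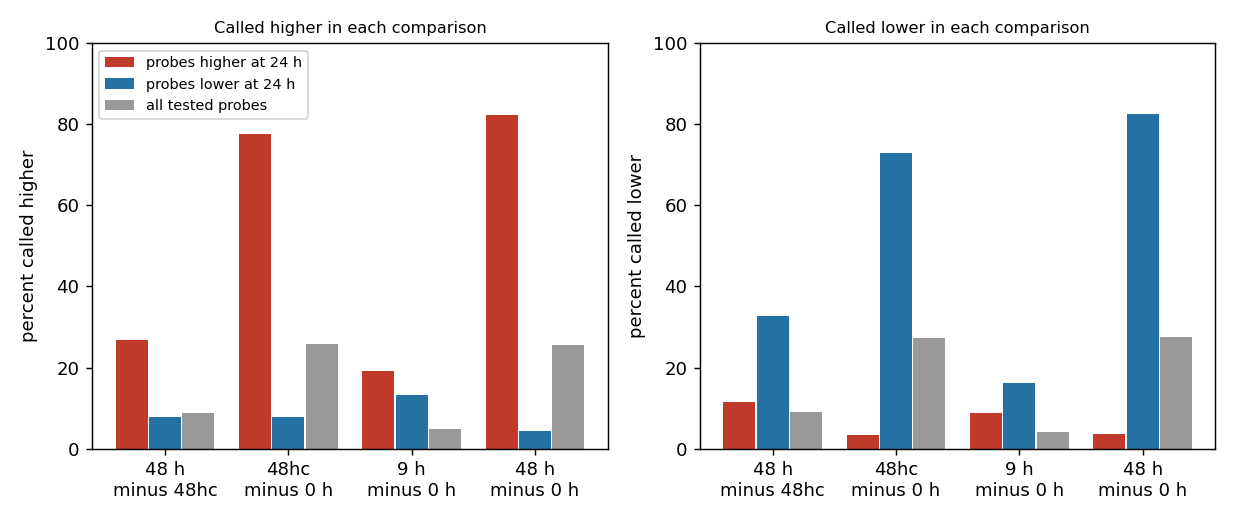
Bars give the percent of the 354 higher probes, of the 271 lower probes and of all 13974 tested probes that were called higher (left) or lower (right) in each of 4 comparisons. In 48hc minus 0 h, 77.7% of the higher probes were called higher, against 25.7% of all tested, and in 48 h minus 48hc 26.8% were, against 8.85%.

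Both lookups use the 48hc arrays, with opposite sign, so the classes they define together are given as a description only. In 71 higher and 55 lower probes the direction was called in both. It was called beyond the control and not in the control for 24 higher and 34 lower probes, among which 4 higher and 17 lower ones moved the opposite way in 48hc. The class shared with the control and not called in 48 h minus 48hc held 169 higher and 126 lower probes, or 295 in all (47.2%). A further 41 higher and 21 lower probes were called the opposite way in 48 h minus 48hc, and 49 higher and 35 lower ones (13.4% of the 625) fell in none of these. Of the last, 44 higher and 32 lower probes were called in neither lookup, and 5 and 3 moved the opposite way in 48hc minus 0 h. Without 24 h replicate 1, 24 h replicate 2, 12 h replicate 1 and 12 h replicate 2 the shared class held 101, 130, 142 and 127 probes.

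The levels of each class at 24 h, 12 h, 48 h, 48hc and 0 h entered its definition and are given as a description, with no test. Taking each array's median difference from the 0 h mean, the higher probes called beyond the control alone stood at 0.62 and 0.61 on the 24 h arrays and at 0.16 and 0.08 on the 12 h arrays. Those probes kept that level at 48 h, at 0.68 and 0.62, while 48hc stood at 0.06 and 0.06. The shared higher probes stood at 0.67 and 0.65 at 24 h and went on to 1.04 and 0.97 at 48 h, where 48hc had 1.00 and 0.96. The 49 remaining higher probes were at 0.57 and 0.54 at 24 h, at 0.07 and -0.03 at 48 h and at 0.04 and 0.08 in 48hc, which follows from how that class was chosen.

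**Figure D3:**
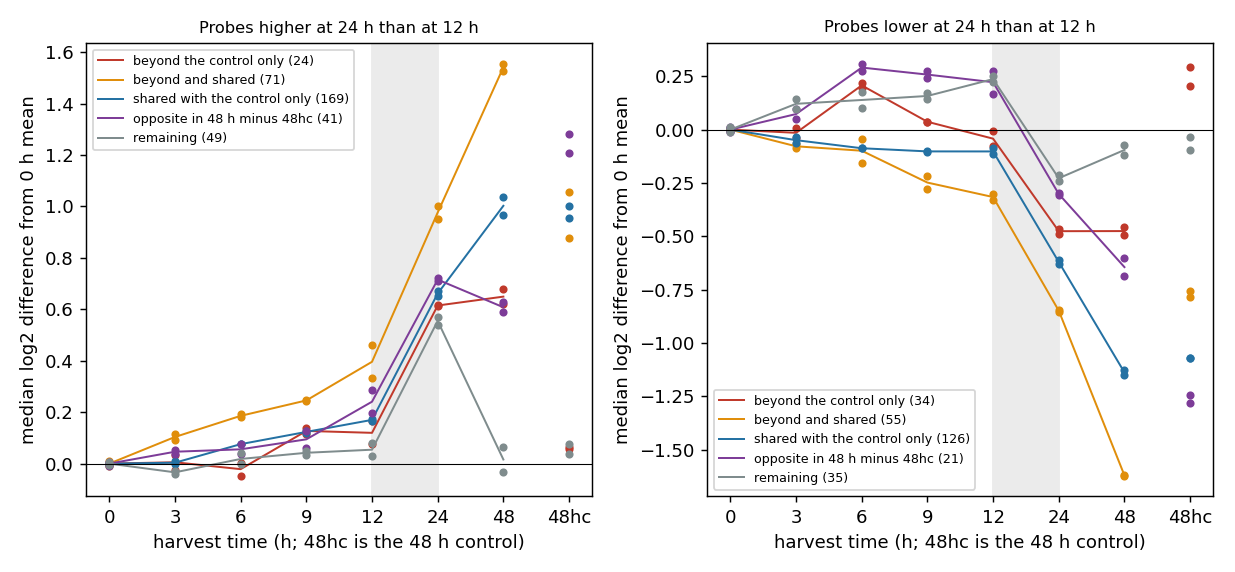
Points are each array's median log2 difference from the 0 h mean over the probes of a class (number in brackets), for probes higher (left) or lower (right) at 24 h than at 12 h, and lines join the group means, with times set evenly along the axis. The 48hc arrays stand apart at the right of each panel, and the shaded band marks the interval from 12 to 24 h. All groups drawn except 3, 6 and 9 h were used to choose the classes, so the positions at the other times, such as 0.07 and -0.03 for the grey class of higher probes at 48 h, follow from that choice.

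Most of the probes were not called at 9 h. Of the 354 higher probes, 68 (19.2%) were called higher and 31 (8.76%) lower at 9 h than at 0 h, where 4.84% of all tested probes were higher and 4.03% lower. Of the 271 lower probes, 44 (16.2%) were lower and 36 (13.3%) higher at 9 h. At 48 h, 291 of the higher probes (82.2%) were above 0 h and 224 of the lower ones (82.7%) below it, where 25.5% and 27.5% of all probes were. For 67 probes the change after 12 h thus ran against a called change at 9 h, and Chac1 and Egr1 below are of that kind. The count of probes with the same direction at 9 h was 112, and 62, 67 and 67 without 24 h replicate 1, 24 h replicate 2 and 12 h replicate 2. It was 55 and 67 with 9 h replicate 1 or 2 left out, and 64 without 0 h replicate 1. The count of opposite direction was 36, 33 and 39 without 24 h replicate 1, 24 h replicate 2 and 12 h replicate 1, and 44 and 40 without 0 h replicate 1 and 9 h replicate 1.

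All levels below are normalized log2 intensities, given for both arrays of a group, and a fold change is taken from their difference. The size of that difference in dim probes depends on the background correction, being smaller without one and larger with the RMA correction. Of the genes higher at 24 h and beyond the control, Ddit4, a stress-induced inhibitor of mTOR signalling, was the brightest named. Its probe had 11.70 and 11.62 at 24 h, against 10.74 and 10.88 at 12 h, a 1.81-fold rise (log2 difference 0.86, SE 0.09, limma adjusted p = 0.000194). At 48 h it had 11.67 and 11.73, against 10.92 and 10.88 in 48hc and 9.98 and 10.07 at 0 h. Ddit4 had thus reached its 48 h level by 24 h, and no array of 24 h or 48 h overlapped with 12 h, 48hc or 0 h.

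Lefty1, the secreted antagonist of Nodal, rose and then fell. It had 11.19 and 11.09 at 24 h and 10.38 and 10.24 at 12 h (log2 difference 0.82, SE 0.11, limma adjusted p = 0.000854). At 48 h its level was 8.79 and 8.69, against 8.22 and 8.14 in 48hc and 8.71 and 8.59 at 0 h. The 24 h arrays were the highest of all times, the 48 h arrays lay 2.40 log2 units lower, and 48hc fell by 0.47 relative to 0 h (limma adjusted p = 0.00196). As 48 h minus 0 h was 0.09 (limma adjusted p = 0.523), its place beyond the control rests mostly on the lower level of 48hc. Lefty1 was already 1.08 log2 units above 0 h at 9 h (limma adjusted p = 2.6e-05).

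Shd, an SH2-domain adaptor, Rgma, a co-receptor of bone morphogenetic proteins, Cpt1b, which carries fatty acids into mitochondria, Cyp27a1, the sterol hydroxylase of bile acid synthesis, and Uap1l1, related to a nucleotide-sugar pyrophosphorylase, complete the named higher genes beyond the control. Shd rose by 1.01 log2 units and Cpt1b by 0.95, with Cyp27a1 at 0.94 and Uap1l1 at 0.93 (limma adjusted p between 0.00037 and 0.00141). Without background correction the differences were 0.34 for Shd, 0.34 for Cpt1b and 0.37 for Cyp27a1, and with the RMA correction 1.56, 1.31 and 1.22. Rgma had 6.61 and 6.07 at 24 h and 5.64 and 5.09 at 12 h, with 7.91 and 7.87 at 48 h and 5.97 and 5.60 in 48hc. Its arrays spread more than those of the other genes, and its rise of 0.98 (SE 0.20, limma adjusted p = 0.0135) lost its call without 24 h replicate 1 (adjusted p = 0.149) and without 12 h replicate 2 (adjusted p = 0.124), as with the RMA background correction (0.0965) and in the authors' processed values (0.0964). All of these but Lefty1 were also higher in 48hc than at 0 h. Cpt1b had 8.05 and 8.06 at 48 h, 7.24 and 7.17 in 48hc and 4.75 and 5.24 at 0 h, so most of its rise over 0 h was found in the control too.

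Among genes whose rise was shared with the control, Adssl1, the muscle form of adenylosuccinate synthase, had the largest difference in 48hc. It had 7.12 and 7.10 at 24 h, against 6.28 and 6.08 at 12 h, a log2 difference of 0.93 (SE 0.10, limma adjusted p = 0.00037). Levels of 9.80 and 9.69 at 48 h and 9.93 and 9.77 in 48hc overlapped, and 0 h had 5.67 and 5.71. The interval from 12 to 24 h thus held a small part of its change. Svop, a transporter-like protein of synaptic vesicles, had 7.71 and 7.54 at 24 h, against 6.63 and 6.22 at 12 h, a 2.30-fold rise (limma adjusted p = 0.00037). Its 24 h arrays were above those of 48 h (7.15 and 7.10), of 48hc (6.89 and 6.59) and of 0 h (5.94 and 5.88).

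Got1l1, related to aspartate aminotransferase, rose by 0.87, Shisa4 by 0.92 and the zinc finger gene Zfp362 by 0.84 (limma adjusted p between 0.000192 and 0.000854). Got1l1 had 11.38 and 11.39 at 48 h, against 11.52 and 11.60 in 48hc, where 0 h had 9.32 and 9.40. None of the 3 differed between 48 h and 48hc at the threshold (limma adjusted p between 0.0752 and 0.904), which does not show that they were equal. The remaining 2 named genes of this class, Ddit3 and Chac1, belong to the ER stress list.

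The ER stress list held 7 genes, all measured, and 5 of its 10 probes were higher at 24 h and 0 were lower, where 2.53% of all tested probes were higher. Its median log2 difference was 0.29, against -0.01 over all tested probes. Upstream sequences of 3 list genes and of Nupr1, a stress-induced chromatin protein chosen after its values were seen, are shown for motifs that Atf4 and the unfolded protein response are known to use. They are the 250 bases before the RefSeq gene start in GRCm38.p6, in the direction of transcription. Capitals mark TGATGNAAN, the composite site of C/EBP and Atf factors, on either strand, or, in Hspa5, the ER stress element.
Chac1, chr2:119350992-119351241 (+ strand): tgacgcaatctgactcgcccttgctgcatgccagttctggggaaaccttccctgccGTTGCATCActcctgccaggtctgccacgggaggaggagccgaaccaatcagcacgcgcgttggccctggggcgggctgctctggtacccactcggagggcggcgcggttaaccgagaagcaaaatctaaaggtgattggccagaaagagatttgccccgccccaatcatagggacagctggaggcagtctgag
Nupr1, chr7:126625471-126625720 (- strand): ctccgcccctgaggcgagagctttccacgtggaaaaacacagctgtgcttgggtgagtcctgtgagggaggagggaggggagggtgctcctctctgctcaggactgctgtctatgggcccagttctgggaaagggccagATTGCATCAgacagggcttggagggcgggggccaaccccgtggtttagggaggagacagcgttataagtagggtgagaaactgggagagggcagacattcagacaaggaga
Asns, chr6:7693210-7693459 (- strand): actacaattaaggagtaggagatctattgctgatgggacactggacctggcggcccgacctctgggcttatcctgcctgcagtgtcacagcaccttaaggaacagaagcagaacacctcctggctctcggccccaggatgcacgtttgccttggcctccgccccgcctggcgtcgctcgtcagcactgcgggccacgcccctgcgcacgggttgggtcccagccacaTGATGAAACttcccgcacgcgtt
Hspa5, chr2:34771840-34772089 (+ strand): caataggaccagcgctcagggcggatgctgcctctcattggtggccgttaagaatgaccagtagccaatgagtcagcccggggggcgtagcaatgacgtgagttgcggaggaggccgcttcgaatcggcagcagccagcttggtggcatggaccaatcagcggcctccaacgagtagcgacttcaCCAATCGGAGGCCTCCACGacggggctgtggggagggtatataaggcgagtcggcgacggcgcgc
In Chac1 and Nupr1 the match lies on the reverse strand, so the capitals are its reverse complement, beginning 194 and 111 bases before the gene start. In Asns it lies on the forward strand at 23 bases and in Hspa5 at 65 bases. TGATGNAAN was present in 3.44% of 32851 mouse promoters of this length, in 2.71% of those of tested genes, in 9 of 235 (3.83%) genes that were higher at 24 h and in 7 of 174 (4.02%) that were lower. The ER stress element was present in 0.113% of promoters. A match is a run of letters and not a bound site, and the windows of Ddit3, Trib3 and Atf4 held neither motif. The window of Atf3, the remaining list gene, held TGATGNAAN on the reverse strand, beginning 111 bases before the gene start.

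Chac1, which breaks down glutathione, had 9.88 and 9.84 at 24 h and 9.00 and 8.90 at 12 h, a 1.88-fold rise (log2 difference 0.91, SE 0.11, limma adjusted p = 0.000538). It had been 1.36 log2 units below 0 h at 9 h (limma adjusted p = 4.59e-06), so its 24 h arrays were back near the 0 h values of 10.03 and 9.93. At 48 h it had 10.60 and 10.49, overlapping with 10.46 and 10.57 in 48hc. Trib3, a pseudokinase induced by Atf4, rose by 0.51 and Atf4 itself by 0.40 (limma adjusted p = 0.0211 and 0.0247).

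Ddit3, the transcription factor CHOP, was higher on both of its probes, by 1.09 (SE 0.14, limma adjusted p = 0.00078) and 0.78 (SE 0.14, limma adjusted p = 0.00458). The first had 8.14 and 8.06 at 24 h, against 6.85 and 7.17 at 12 h, with 9.99 and 10.07 at 48 h, 10.20 and 10.43 in 48hc and 7.12 and 7.17 at 0 h. Most of the Ddit3 change came after 24 h and was found in 48hc as well. Asns, asparagine synthetase, carries the same motif in capitals as Chac1 and Nupr1, and its 3 probes had log2 differences of 0.05, 0.15 and 0.18 (limma adjusted p between 0.271 and 0.915). In 48hc all 3 were higher than at 0 h, by 0.89 to 1.48. The ER chaperone Hspa5 had a log2 difference of -0.36 (limma adjusted p = 0.317) and Atf3 one of 0.13 (limma adjusted p = 0.699).

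Nupr1 had 10.11 and 10.23 at 24 h and 9.08 and 9.21 at 12 h, a 2.04-fold rise (limma adjusted p = 0.000264), after a fall of 1.08 log2 units at 9 h. It reached 11.93 and 11.91 at 48 h but 12.35 and 12.47 in 48hc, so that 48 h minus 48hc was -0.49 (SE 0.11, limma adjusted p = 0.00571). Nupr1 therefore belongs to the 41 higher probes that were lower at 48 h than in the control. Of the ER stress list, 3 probes were called higher in a fit to the 24 h and 12 h arrays alone, 2 without 12 h replicate 1 or 24 h replicate 1, 4 without 12 h replicate 2 and 3 without 24 h replicate 2. Chac1 and the first Ddit3 probe were called in each of these. Atf4 lost its call in all 4 (adjusted p 0.0785 to 0.122), Trib3 in all but 12 h replicate 2 (up to 0.151) and the second Ddit3 probe without 12 h replicate 1 or 24 h replicate 1 (0.055 and 0.0514).

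Of 15 probes for the 6 measured p53 target genes of the list, 9 (of 4 genes) were higher at 24 h than at 12 h and 0 were lower, where 2.53% of all tested probes were higher, with a median log2 difference of 0.39, against -0.01 over all tested probes. All 3 probes of Cdkn1a, the cyclin-dependent kinase inhibitor p21, were higher, by 0.44 to 0.60, as were both probes of Phlda3, an inhibitor of Akt. Of Ccng1, cyclin G, and of Mdm2, the ubiquitin ligase that degrades p53, 2 of 3 probes each were called. Both probes of Trp53inp1 missed the threshold, at 0.38 and 0.39 (limma adjusted p = 0.055 and 0.0744), and those of Sesn2 had 0.03 and 0.29.

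The brightest Cdkn1a probe had 10.60 and 10.54 at 24 h and 9.92 and 10.03 at 12 h (log2 difference 0.60, SE 0.10, limma adjusted p = 0.00278). Its 48 h arrays, 10.14 and 10.00, lay below 24 h, and 48hc had 10.21 and 10.39, against 9.94 and 10.06 at 0 h. Both arrays of 24 h were thus above every array of 12 h, 48 h, 48hc and 0 h. The brighter Phlda3 probe had 10.54 and 10.58 at 24 h, against 10.02 and 10.00 at 12 h (log2 difference 0.55, SE 0.09, limma adjusted p = 0.00329), with 9.95 and 9.92 at 48 h, 9.75 and 9.75 in 48hc and 9.88 and 10.03 at 0 h. It too stood highest at 24 h among these groups.

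Between 48 h and 48hc, 0 of the 15 p53 target probes were called higher and 1 was lower (a Cdkn1a probe, by 0.38). In that comparison 8.85% of all tested probes were called higher and 9.05% lower, so these counts are near the shares over all probes. In 48 h minus 0 h, 1 of the p53 target probes was higher and 3 were lower, where 25.5% and 27.5% of all were. Fas, a death receptor and p53 target chosen after its values were seen, had 6.00 and 5.83 at 24 h and 5.14 and 5.41 at 12 h (log2 difference 0.64, limma adjusted p = 0.016). It was not well above background at 48 h, where it had 5.09 and 4.91, or at 0 h, and it lost its call without 24 h replicate 1 and without 12 h replicate 1 (adjusted p = 0.132 and 0.131), and with the RMA background correction or in the authors' processed values (0.126 each). The count of 9 for the list was 2 in a fit to the 24 h and 12 h arrays alone, and it was 3, 2, 4 and 4 without 24 h replicate 1, 24 h replicate 2, 12 h replicate 1 and 12 h replicate 2. In each of these the brightest Cdkn1a probe and the brighter Phlda3 probe were called. The other 2 Cdkn1a probes kept their call without 12 h replicate 2 alone, and the fainter Phlda3 probe and the called Mdm2 and Ccng1 probes lost theirs in 2 or more of the 4.

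**Figure D4:**
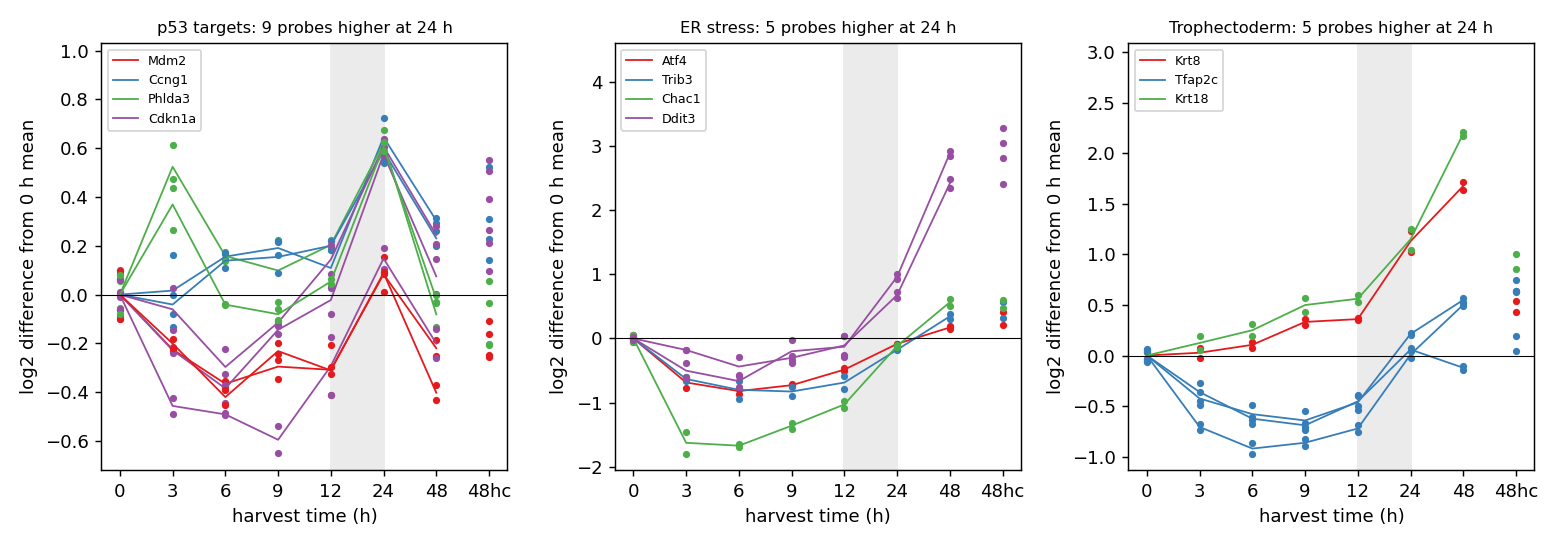
Points are the log2 difference of each array from the probe's 0 h mean, for the list probes called higher at 24 h, with lines through the means, times set evenly along the axis and colours for genes. The p53 target probes peak at 24 h. Of the ER stress probes, those of Ddit3 stand far higher at 48 h and in 48hc, and of the trophectoderm probes those of Krt8 and Krt18 stand higher at 48 h than in 48hc.

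In the trophectoderm list 5 of 8 probes were higher and 0 lower, where 2.53% of all tested probes were higher, and the 5 stand for 2 keratins and 1 transcription factor. The summed normalized intensity of the 8 probes, on a linear scale, was 6179 to 6364 at 0 h, 4510 to 4879 at 12 h and 7273 to 7549 at 24 h. Part of the rise thus followed an earlier fall. At 9 h, 3 of the 8 were called higher and 3 lower than at 0 h, where 4.84% and 4.03% of all tested probes were. Krt8, a keratin of simple epithelia, had 9.60 and 9.39 at 24 h and 8.73 and 8.72 at 12 h (log2 difference 0.77, SE 0.09, limma adjusted p = 0.000538), and its partner Krt18 rose by 0.59 (limma adjusted p = 0.00443). At 48 h Krt8 had 10.00 and 10.08, against 8.80 and 8.91 in 48hc. Both keratins were higher at 48 h than in 48hc, by 1.19 and 1.26. All 3 probes of Tfap2c, an AP-2 factor also found in embryonic stem cells, were higher at 24 h, by 0.51 to 0.73, but none was called in 48 h minus 48hc. The lineage regulators of the list were not called: Cdx2 had 0.22, Gata3 -0.04 and Eomes -0.14. Without 24 h replicate 1 the list had 3 called probes, having lost Krt18 (adjusted p = 0.0666) and 1 Tfap2c probe (0.0528), which was also lost without 12 h replicate 2 (0.0541).

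Pluripotency probes are set against the 2.53% of all tested probes that were called higher and the 1.94% called lower. Of 16 probes for 11 naive pluripotency genes, 0 were called in limma, which is near those shares. At 9 h, 14 of the same probes were lower than at 0 h, where 4.03% of all tested probes were. At 48 h, 15 were lower than in 48hc, where 9.05% of all were. In 48hc 14 were higher than at 0 h (25.7% of all), and 48 h minus 0 h called 4 higher and 5 lower (25.5% and 27.5% of all). At an unadjusted p under 0.05, 4 were higher and 1 was lower, where 10.6% of all tested probes were higher and 9.45% lower. Klf4 came nearest, with log2 differences of 0.39 to 0.42 on 3 probes (limma adjusted p = 0.0508 to 0.114). Nanog had 11.20 and 11.26 at 24 h, against 11.21 and 10.96 at 12 h, and its groups overlapped. Under 6 alternatives that keep all arrays, among them median scaling and no background correction, 2 probes of this list were called higher, and 1 was with cyclic loess or without 24 h replicate 1, 12 h replicate 2 or either 48hc array. In the core list, 2 of 18 probes were lower, where 1.94% of all tested probes were. They were Utf1, a chromatin factor of embryonic stem cells, by 0.55 (limma adjusted p = 0.00837), and 1 of 2 probes of Pou5f1, by 0.35 (limma adjusted p = 0.0347). Both lost their call without 24 h replicate 2 (adjusted p = 0.0869 and 0.128) and without 12 h replicate 2 (0.072 and 0.169), and Pou5f1 also without the other array of either time (0.156 and 0.0566). The Pou5f1 call was also lost with median scaling (0.0557), with cyclic loess (0.0567), in the fit to the compared groups alone (0.163) and without either 9 h array (0.05) or either 48 h array (0.0526). Otx2, a regulator of the primed state, was lower by 0.36 (limma adjusted p = 0.0292), the only call among 4 probes of its list, and lost it without any of the 4 arrays (adjusted p 0.0754 to 0.185).

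Egr1 fell furthest of all probes. It had 8.67 and 8.58 at 24 h and 10.10 and 10.22 at 12 h, a 2.90-fold fall (log2 difference -1.54, SE 0.09, limma adjusted p = 8.53e-07). At 9 h it had been 0.88 log2 units above 0 h. It went on to 7.26 and 7.27 at 48 h, but 48hc had 5.96 and 5.88, against 9.46 and 9.39 at 0 h, so that 48 h minus 48hc was 1.35 (limma adjusted p = 1.59e-07). The fall of Egr1 was thus larger in the control, and its probe is among the 21 lower ones that were higher at 48 h than in 48hc. It was the only call among the 5 probes of the immediate early list, with Fos at -0.11, Jun at 0.14, Junb at -0.30 and Myc, which was not well above background at either time, at -0.36. At an unadjusted p under 0.05, 3 of the 5 were lower.

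Id1 and Id4, inhibitors of basic helix-loop-helix factors chosen after their values were seen, were also lower at 24 h and higher at 48 h than in 48hc. Id1 had 6.96 and 6.62 at 24 h and 7.67 and 7.71 at 12 h (log2 difference -0.90, limma adjusted p = 0.000951), with 6.76 and 6.68 at 48 h, against 6.00 and 5.68 in 48hc. Id4 had 7.87 and 7.89 at 24 h and 8.39 and 8.28 at 12 h, a fall of a gene that stood 3.35 log2 units above 0 h at 9 h. That fall, of -0.45 (limma adjusted p = 0.0227), lost its call without any 1 of the 4 arrays (adjusted p 0.0605 to 0.134). Id4 kept most of its rise, at 7.72 and 7.85 at 48 h, against 6.49 and 6.38 in 48hc.

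**Figure D5:**
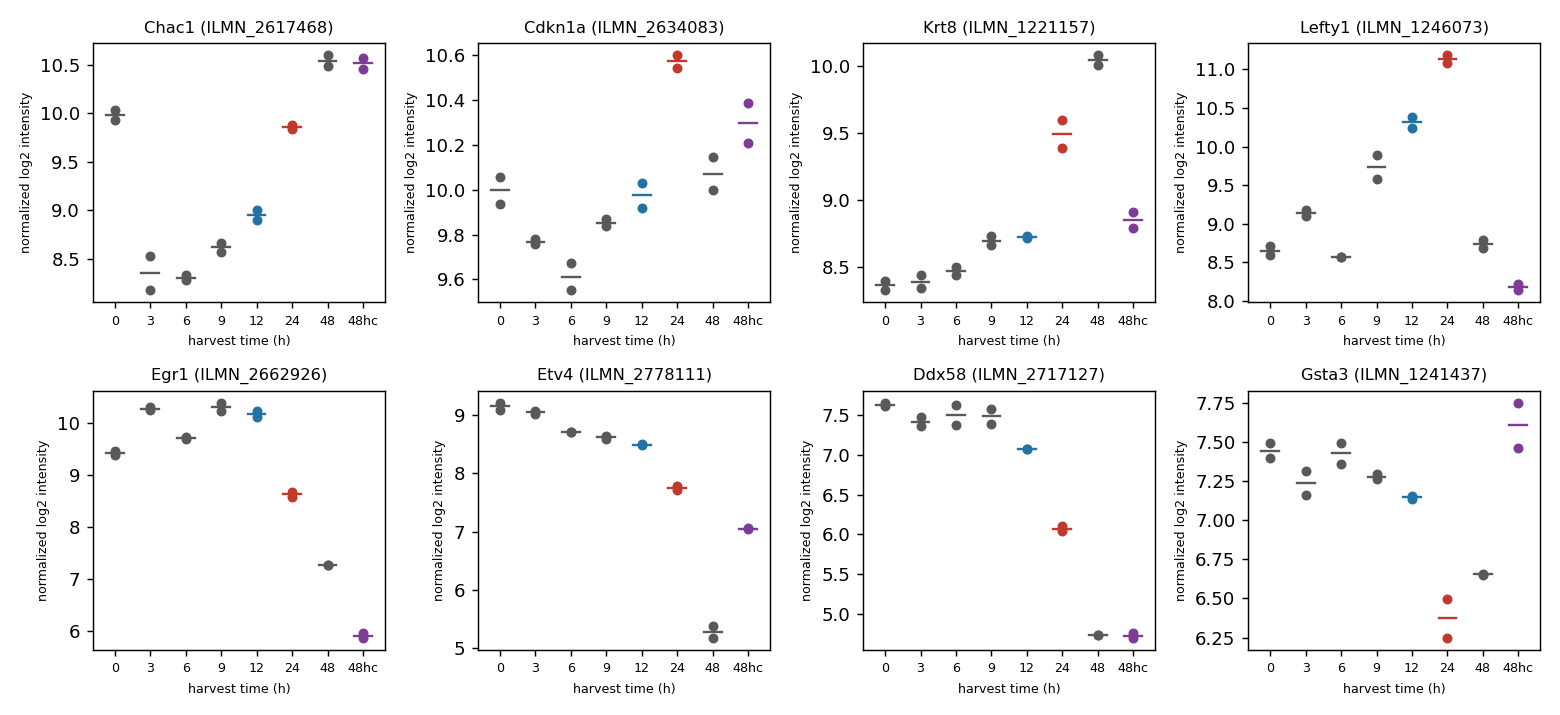
Normalized log2 intensity of 8 genes on all 16 arrays (points), with the group mean as a bar, over time and with 48hc at the right, 24 h in red, 12 h in blue and 48hc in purple. Chac1 returns at 24 h to near its 0 h level, Cdkn1a and Lefty1 are highest at 24 h, Krt8 goes on rising to 48 h, and Egr1, Etv4, Ddx58 and Gsta3 are lower at 24 h than at 12 h.

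Lower genes beyond the control were led by Enox1, a cell surface oxidase, with 7.58 and 7.83 at 24 h and 8.76 and 8.84 at 12 h (log2 difference -1.10, SE 0.12, limma adjusted p = 0.00037). It fell on to 5.95 and 5.67 at 48 h, against 6.19 and 6.30 in 48hc and 9.80 and 9.94 at 0 h. Enox1 therefore fell mostly in common with the control, with a further 0.44 beyond it. Etv4, an ETS factor of FGF signalling chosen after its values were seen, showed a larger share beyond the control. It had 7.71 and 7.77 at 24 h, against 8.49 and 8.49 at 12 h (log2 difference -0.75, limma adjusted p = 0.000538), and 5.18 and 5.39 at 48 h, against 7.04 and 7.06 in 48hc.

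Gsta3, a glutathione transferase, and Scd1, the desaturase that makes oleic acid, fell at 24 h and not in 48hc. Gsta3 had 6.25 and 6.50 at 24 h and 7.14 and 7.16 at 12 h (log2 difference -0.77, SE 0.11, limma adjusted p = 0.00151). At 48 h it had 6.66 and 6.65, against 7.47 and 7.75 in 48hc and 7.50 and 7.40 at 0 h, with no overlap between 48 h and the other 2 groups. Scd1 had 7.96 and 8.04 at 24 h, against 8.86 and 8.67 at 12 h, and it was 0.52 lower at 48 h than in 48hc, where it was 0.32 above 0 h (limma adjusted p = 0.0253).

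Spink2, a serine protease inhibitor, had 5.44 and 5.41 at 24 h and 6.29 and 6.21 at 12 h (log2 difference -0.82, limma adjusted p = 0.00151), after a rise by 9 h from a 0 h level not well above background. It thus lost part of an early gain. Myo1g, a myosin of blood cells, was lower by 1.02 and Ccdc3 by 0.82 (limma adjusted p = 0.00101 and 0.000824). Of the Myo1g arrays, 1 at 24 h was above background, and at 48 h the gene was not well above it. Over the alternatives tried, the log2 difference ranged from -1.48 to -0.35 for Myo1g and from -1.10 to -0.30 for Spink2. Inhbb, the beta B subunit of activin and inhibin, had 5.60 and 5.22 at 24 h and 6.21 and 6.28 at 12 h, with 8.20 and 8.12 at 0 h, and was not well above background at 48 h. Its log2 difference of -0.84 (limma adjusted p = 0.0111) lost its call without 12 h replicate 1, 12 h replicate 2 or 24 h replicate 2 (adjusted p = 0.0518, 0.072 and 0.115).

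Lower genes shared with the control included 2 of antiviral defence. Ddx58, the RNA sensor RIG-I, had 6.10 and 6.04 at 24 h and 7.07 and 7.07 at 12 h, a 2.00-fold fall (limma adjusted p = 0.000194). On the 48 h and 48hc arrays it was not well above background, whereas 0 h had 7.66 and 7.61. Oas2, an interferon-induced oligoadenylate synthetase, was near background at 24 h (no array well above it) and at least 1.66-fold lower there than at 12 h (limma adjusted p = 0.00141), with measured values of 4.99 and 4.86 at 24 h and 5.85 and 5.86 at 12 h. The interferon gamma receptor subunit Ifngr2 had 7.29 and 7.39 at 24 h, against 7.86 and 8.53 at 12 h (log2 difference -0.85, SE 0.22, limma adjusted p = 0.0393). The 12 h arrays of Ifngr2 stood far apart, and its call was lost without 12 h replicate 2, where the log2 difference was -0.52, and without 24 h replicate 1 or 2 (adjusted p = 0.251, 0.185 and 0.12). It was also lost with the RMA background correction or in the authors' processed values (0.092 each), with no filter on detection (0.0876), and without either 6 h array (0.0501 each) or either 48 h array (0.0524 each).

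Cabs1, a calcium-binding protein of sperm, had 5.09 and 5.15 at 24 h and 6.26 and 6.13 at 12 h (log2 difference -1.08, limma adjusted p = 0.000538), with 1 of the 24 h arrays above background. Over the alternatives tried, the Cabs1 difference ranged from -1.55 to -0.37. Spry4, a feedback inhibitor of receptor tyrosine kinase signalling, had 5.67 and 5.55 at 24 h, against 6.30 and 6.60 at 12 h (log2 difference -0.84, limma adjusted p = 0.00378). Spry4 had stood at 7.28 and 7.21 at 0 h, so its fall had begun before the interval. The endothelial guidance receptor Robo4 was lower by 0.94 and Epas1, a hypoxia-inducible factor subunit, by 0.84 (limma adjusted p = 0.00494 and 0.00532). Robo4 lost its call without 24 h replicate 1 (adjusted p = 0.0625) and with the RMA background correction or in the authors' processed values (0.16 each), and Epas1 without 12 h replicate 1 or 24 h replicate 2 (0.0547 and 0.0701).

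Among probes called in neither lookup was 1 of Gadd45g, a stress gene of growth arrest with 2 probes (chosen after its values were seen). It had 8.34 and 8.24 at 24 h and 7.39 and 7.41 at 12 h (log2 difference 0.89, limma adjusted p = 0.000538), with 7.96 and 7.75 at 48 h, 7.89 and 8.02 in 48hc and 7.65 and 7.81 at 0 h. It stood highest at 24 h among these groups. The other Gadd45g probe rose by 0.65 and was also higher in 48hc than at 0 h, so the probes of this gene fall in different classes. Dcxr, a carbonyl reductase chosen in the same way, was higher at 24 h on 2 probes, by 1.02 and 0.83, and on both it was lower at 48 h than in 48hc, by 0.40 and 0.33.

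The remaining lists showed few calls. At the 4.47% of all tested probes that were called, lists of this size would also hold few or 0. Of 25 probes for E2F targets and DNA replication genes, which E1A is known to induce by displacing the retinoblastoma protein, 0 were called in limma. At an unadjusted p under 0.05, 1 was higher and 3 were lower, again where 10.6% and 9.45% of all were, and 20 had negative differences, with a median of -0.12 over the list. Endoderm genes (11 probes), imprinted genes (7), sterol synthesis genes (7), neural genes (2) and mesoderm genes (1) had 0 calls in limma, and all 7 sterol synthesis differences were negative. At an unadjusted p under 0.05, 5 sterol synthesis probes (71.4%) and 3 imprinted probes (42.9%) were lower, where 9.45% of all tested probes were. By the same measure 1 endoderm probe was higher, and the neural and mesoderm lists had 0. In the glycolysis and hypoxia list, 1 of 8 probes was higher, that of the growth factor Vegfa, which lost its call without 12 h replicate 2 or 24 h replicate 2 (adjusted p = 0.0628 and 0.0779). Without 24 h replicate 2, 1 E2F probe was called lower. Among fibroblast markers Thy1 was lower by 0.55 (limma adjusted p = 0.01), lost without 12 h replicate 1 or 24 h replicate 2 (0.079 and 0.1), while Tagln was not well above background at either time.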

How the data were processed

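Total RNA of 16 samples, 2 in each of 8 groups, was hybridised to 1 bead array each, with grouping by sample title. BeadStudio 3.2, RMA and lumi appear in the submitters' processing notes, their roles unstated. The deposited table, called non-normalized by the authors, holds linear intensities and a detection p-value per probe and array, with 0 unmatched columns. The deposited series value table holds log2 values with the same distribution on every array, and they served as an alternative. The genome build used for the probes is not given in the sources used here.

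In limma 3.58.1 (R 4.3.3), intensities were background-corrected with the normal-exponential model, background being inferred from detection p-values, with an offset of 16, then quantile normalized and taken to log2. Testing was limited to the 13974 probes detected (p-value under 0.05) on 2 or more arrays, leaving out 11723. All 16 arrays entered 1 model of the 8 group means and each comparison was a contrast, adjusted by Benjamini-Hochberg over all tested probes. With 2 arrays per group, the number of arrays limits the precision (median SE of a log2 difference 0.12). The procedure was tested on simulated data. Gene names came from GEO's platform annotation and were updated through Entrez IDs in a RefSeq table (GRCm38.p6): 23978 probes had 1 symbol, 0 had several and 1719 had none. Promoter sequences are RefSeq's.

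Named genes were, for each direction, the 7 with the largest difference beyond the control (48 h minus 48hc called with the same sign) and the 7 shared with the control (48hc minus 0 h called with the same sign, 48 h minus 48hc not called), at 1 probe a gene, 28 in all, plus the list members. The members and the gene lists were chosen with earlier results of these data known. A probe detected on neither array of a group is described as not well above background there. Alternatives covered the normalization, background, filter, threshold, variance model, samples fitted, replicate block and leaving out each array.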

Additional observations from a re-analysis of the deposited data

Results flagged for a closer look

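For 8 of the 625 probes, 48 h and 48hc were called on opposite sides of 0 h, and the difference between them was itself tested and called (limma, 48 h minus 48hc). They were singled out for that reason, and the 48 h and 48hc comparisons with 0 h share the 0 h arrays. All 8 moved at 24 h in the direction they had at 48 h. Emp1, an epithelial membrane protein, had 7.89 and 7.99 at 24 h and 8.60 and 8.65 at 12 h, and then 8.44 and 8.26 at 48 h, against 9.40 and 9.60 in 48hc and 8.90 and 8.91 at 0 h. Its 48 h minus 48hc difference was -1.15 (SE 0.10, limma adjusted p = 1.59e-06). The unnamed probe ILMN_1223594 had 6.79 and 6.77 at 48 h, against 8.65 and 8.71 in 48hc and 7.68 and 7.76 at 0 h, a 48 h minus 48hc difference of -1.90 (limma adjusted p = 3.09e-08). Its 24 h minus 12 h difference was -0.40 (limma adjusted p = 0.0419), and this call was lost in 18 of the alternatives tried.

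Hal, histidine ammonia-lyase, differed by -0.99 between 48 h and 48hc, Clgn, a chaperone of the testis, by -0.83 and Arrdc4, an arrestin-domain protein, by -0.83. Dbt, a subunit of the branched-chain ketoacid dehydrogenase, differed by -0.64 and Bdh1, a ketone body dehydrogenase, by -0.60. Arrdc4 had 9.18 and 9.12 at 24 h and 9.71 and 9.71 at 12 h, with 9.86 and 9.79 at 48 h, 10.63 and 10.68 in 48hc and 10.08 and 10.19 at 0 h. Zmynd8, a chromatin reader, was the only one that rose. It had 7.31 and 7.18 at 24 h, 6.94 and 6.80 at 12 h, 7.18 and 7.28 at 48 h, 6.55 and 6.48 in 48hc and 6.80 and 6.76 at 0 h, and 48 h minus 48hc was 0.72. The 24 h minus 12 h call was lost in 19 alternatives for Dbt, 17 for Zmynd8 and 10 for Hal.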

How the results depend on the processing

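Of the 30 alternatives, using 48hc minus 12 h in place of 48hc minus 0 h did not bear on single probes. Detection on 8 arrays kept 70 of the 72 probes followed singly. In the alternatives that tested them, 0 of the 72 changed sign and 42 kept their call throughout (23 of the 28 genes named by rule). The share of calls that were higher stayed above 50% (lowest 50.8% without 24 h replicate 1), and median scaling gave 63.1%, cyclic loess 59.6% and the fit to the compared groups alone 60.8%. The counts depended more on the setting. In the order of probes called, same and opposite direction in 48 h minus 48hc, same and opposite in 48hc minus 0 h, shared class, same and opposite at 9 h, and same at 48 h minus 0 h, they were 1011, 277, 143, 778, 60, 471, 186, 123 and 837 without background correction, 218, 71, 11, 174, 8, 114, 41, 23 and 193 with the adjusted p held below 0.01, 343, 92, 16, 238, 6, 170, 45, 25 and 271 when calls also needed a log2 difference of 0.5, and 283, 89, 19, 219, 11, 138, 58, 32 and 242 in the fit to the compared groups. The stricter thresholds call fewer probes by construction, and the smaller fit takes the spread from fewer arrays. An offset of 50 gave 114 opposite to 48hc, 712 and 51 same and opposite in the control, 445 shared, 172 same at 9 h and 773 same at 48 h, and an intensity trend with robust moderation gave 102 opposite to 48hc, 50 opposite in the control and 444 shared. The cause of these shifts was not tested. Leaving out each array in turn gave 236 to 680 called probes, 84 to 180 same and 26 to 61 opposite to 48hc (21.9% to 38.5% same), 186 to 499 same and 11 to 35 opposite in the control (70.4% to 82.0% same), 101 to 367 shared, 55 to 126 same and 33 to 73 opposite at 9 h, and 206 to 559 same at 48 h. No lone array left by this could show its own spread. Deviations of same-numbered arrays correlated at -0.07 to 0.29 over the 28 pairs of groups, over 0.1 in 16 of them and at 0.16 between 24 h and 12 h, so not every pair passed 0.1 and the numbers were not taken as pairs. With the replicate block 818 probes were called and 100 were opposite to 48hc, 2 naive pluripotency probes were higher and 1 E2F probe lower (0 without the block), and no other such count moved by over 1.5 times. Of the gene lists, p53 targets had 2 higher probes with the adjusted p held below 0.01 and in the fit to the compared groups and 3 when a log2 difference of 0.5 was needed, and ER stress had 3 in the first 2 of these settings. Naive pluripotency had 2 higher with median scaling, without background correction, with an offset of 50, with detection on 8 arrays and with the intensity trend, and 1 with cyclic loess. The trophectoderm count stayed at 5 in every alternative that kept all arrays. Sizes depended on the background correction: without one, 34 of the 72 differences were smaller by over 1.5 times (median ratio 0.718), with an offset of 50 15 were, and with RMA correction 2 were larger. Calls were lost for 16 of the 72 in the fit to the compared groups, for 10 with RMA correction, for 6 with median scaling and for 3 with cyclic loess. A slide block was not run, as the files name no slide. Dim probes are limited by background, as for Oas2.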

Other observations

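Vldlr, the very low density lipoprotein receptor, and Jdp2, an AP-1 repressor, were among genes that rose at 24 h in common with the control, and both were chosen after their values were seen. All 3 Vldlr probes were higher at 24 h than at 12 h, by 0.61 to 0.81, and higher in 48hc than at 0 h, by 2.21 to 2.62. The Vldlr probe ILMN_2796472 had 6.80 and 6.57 at 24 h and 5.96 and 6.06 at 12 h, with 8.66 and 8.62 at 48 h and 8.63 and 8.45 in 48hc, so that 48 h and 48hc overlapped. It was called without any 1 of the 24 h and 12 h arrays, whereas the other two probes lost their call in 1 or 2 of those 4. Jdp2 had 5.97 and 5.98 at 24 h and 5.24 and 5.08 at 12 h (log2 difference 0.81, limma adjusted p = 0.000951), having been at 5.98 and 5.71 at 0 h. Apart from Chac1, Gadd45g and Nupr1, the genes higher at 24 h whose promoter window held TGATGNAAN were Apoe, Cd59b, Fabp3, Jdp2, Serpinf1 and Vldlr, a share of 3.83%, against 2.71% of tested genes and 4.02% of genes lower at 24 h.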
